A study of Mus musculus with 6 samples.

Results

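The collagen chains were taken as all gene probes whose name in the array files is Col, a type number, the letter a and a chain number, each gene through its brightest probe over the arrays. This gave 43 genes, measured by 68 probes, among 30186 named genes on the array. The series holds 6 mouse arrays from Agilent with a single dye, 1 per group. By label the groups were C57BL/6 mice lacking TIARP (KO, TIARP-/-) and wild-type mice (WT, TIARP+/+), with 3 conditions of each. These were peritoneal macrophages elicited by thioglycollate for 3 days and kept with TNFα for 24 h, the same kind of macrophages without a TNF label, and Ly6G+ neutrophils isolated from spleen cells on magnetic beads. The gene Steap4 encodes TIARP, a metalloreductase of cell membranes. The labels number 3 mice for each array and do not say whether their RNA was pooled, and give no age, no deleted exon and no time in culture for the macrophages without TNF. With 1 array per group there is no replicate of any group and no test was run, so every difference below is a difference between arrays.

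Collagens are the main structural proteins of the extracellular matrix, built from chains that wind around each other in triple helices. Fibroblasts, mesothelial cells and smooth muscle cells are known as their main producers in the peritoneum, while macrophages and neutrophils are known mostly for degrading and binding collagen. Fibrillar types form the cables of connective tissue, type IV forms the sheet of basement membranes, type VI forms beaded filaments around cells, and the fibril-associated types (FACIT) decorate fibrils.

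The triple helix needs glycine in every repeat of its chains, which in the coding strand shows as GGN triplets (N, any base) spaced 9 bases apart. Such a run of at least 4 triplets lay in 4 of the 68 collagen probes (5.88%) and in 0.0994% of the brightest probes of all named genes. These 4 probes are shown, as the array files give them (coding strand, 5′ to 3′), because the repeat in them is the feature that defines the family, with the GGN triplets of the run in capitals.
Col15a1 (A_55_P2060386, mm9 chr4:47283786-47283845, + strand): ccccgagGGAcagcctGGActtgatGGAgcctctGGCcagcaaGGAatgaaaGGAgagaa
Col25a1 (A_55_P2107711, mm9 chr3:130270497-130270556, + strand): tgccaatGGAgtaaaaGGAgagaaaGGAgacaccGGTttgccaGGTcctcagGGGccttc
Col16a1 (A_55_P2056735, mm9 chr4:129756457-129756516, + strand): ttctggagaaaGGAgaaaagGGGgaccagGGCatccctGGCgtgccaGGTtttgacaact
Col14a1 (A_55_P2159522, mm9 chr15:55347733-55347792, + strand): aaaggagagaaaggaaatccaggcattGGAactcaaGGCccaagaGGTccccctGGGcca
The first 2 are the brightest probes of their genes, and the Col14a1 probe is the one whose differences are set beside those of its gene's brightest probe further on.

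Promoters were also compared, over all chains with a window and without regard to how they moved on the arrays. RefSeq promoter windows (build GRCm38.p6, spanning the annotated start) were found for 35 of the 43 genes, some with 2 windows, 38 in all. A CCAAT motif, on either strand, lay in 13 of these 38 windows (34.2%) and in 37.4% of all 32851 windows. TATAAA lay in 5 (13.2%) and in 13.6% of all windows, and GGGCGG, a GC box, in 23 (60.5%) and in 35.7%. The median GC content was 59.8% in the collagen windows and 52.7% in all windows. Col4a1 and Col4a2, the 2 main chains of basement membrane collagen, start head to head, and their windows share 78 bases read on opposite strands. Both windows are shown for that arrangement, with the shared bases in capitals.
Col4a1 (chr8:11312777-11313076, - strand): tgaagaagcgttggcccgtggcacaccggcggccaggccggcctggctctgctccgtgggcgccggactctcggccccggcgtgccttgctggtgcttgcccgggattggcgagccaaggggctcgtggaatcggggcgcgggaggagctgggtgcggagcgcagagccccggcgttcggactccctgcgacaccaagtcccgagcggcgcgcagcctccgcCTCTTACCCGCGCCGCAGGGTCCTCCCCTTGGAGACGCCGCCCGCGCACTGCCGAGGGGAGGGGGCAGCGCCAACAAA
Col4a2 (chr8:11312555-11312854, + strand): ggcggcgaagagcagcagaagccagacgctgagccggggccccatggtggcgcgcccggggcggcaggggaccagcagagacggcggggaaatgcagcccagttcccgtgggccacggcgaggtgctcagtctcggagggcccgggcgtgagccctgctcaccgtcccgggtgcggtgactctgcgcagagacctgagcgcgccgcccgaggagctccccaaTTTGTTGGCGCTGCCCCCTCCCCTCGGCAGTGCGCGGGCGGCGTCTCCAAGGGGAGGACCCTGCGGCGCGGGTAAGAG
The windows of Col1a2, a type I chain lower in both KO comparisons of macrophages, and of Col5a3, a type V chain higher with TNF in both genotypes, are shown with each CCAAT, or its reverse complement ATTGG, in capitals.
Col1a2 (chr6:4505368-4505667, + strand): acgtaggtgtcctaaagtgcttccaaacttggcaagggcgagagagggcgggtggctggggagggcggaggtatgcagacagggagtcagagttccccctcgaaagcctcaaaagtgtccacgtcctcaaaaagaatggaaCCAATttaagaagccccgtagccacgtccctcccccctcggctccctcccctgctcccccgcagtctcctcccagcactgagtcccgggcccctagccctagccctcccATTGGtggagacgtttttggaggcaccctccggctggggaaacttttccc
Col5a3 (chr9:20815018-20815317, - strand): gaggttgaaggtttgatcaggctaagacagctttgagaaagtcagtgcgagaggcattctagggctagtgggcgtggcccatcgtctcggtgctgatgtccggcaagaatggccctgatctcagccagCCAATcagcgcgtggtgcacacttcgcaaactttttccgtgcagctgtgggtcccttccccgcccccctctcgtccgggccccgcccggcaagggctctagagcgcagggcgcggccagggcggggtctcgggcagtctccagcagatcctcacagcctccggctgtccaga
Col1a2 held 2 CCAAT matches and Col5a3 held 1, and neither window held TATAAA. A match is a description of the letters and not a measured site.

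The values below are relative signals, the background-subtracted spot intensity divided by the 75th percentile of the gene probes on the same array, so that 1 is that percentile. A gene was called higher or lower when it differed by at least 2-fold (1 on the log2 scale) and the scanner software marked its probe as well above background on the brighter of both arrays. If the probe lacked that mark on the dimmer one, the fold is a lower bound and is written as at least. A gene counted as measured in a comparison when its probe was well above background on the brighter of the arrays compared. It was left out where its bound fell on the other side of 0. Errors of log2 differences are the scanner software's spot errors of the 2 spots combined and hold no spread between mice. The probe of Col4a1 was spotted repeatedly, and its 9 or 10 spots per array had an SD of 0.04 to 0.06 on the log2 scale on the macrophage arrays. Levels of different probes are not comparable with each other.

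Across the arrays, 56.64% to 62.16% of all gene probes were well above background, with 75th percentile signals of 223.96 to 489.82 and 0 saturated gene spots. Steap4 itself, the targeted gene, had a relative signal of 0.0379 on the KO and 0.114 on the WT macrophage array with TNF, 0.203 and 0.357 without TNF, and 0.161 and 0.211 in KO and WT neutrophils. Its single probe was at least 3.00-fold lower in KO macrophages with TNF and not past 2-fold in the other KO-WT pairs. No source used here places the probe inside or outside the deleted part, so it does not check the labels. On the macrophage arrays the macrophage markers Cd68 and Csf1r had relative signals of at least 229.5. Others of that list were dimmer there, such as Mertk with 0.777 to 4.54. Csf1r also had 148.0 in KO and 261.9 in WT neutrophils, where Cd68 had 19.8 and 42.8. The neutrophil arrays carried the B-cell markers Cd79a, Cd79b and Ms4a1 besides neutrophil genes, with summed B-cell markers of 451.5 in KO and 494.6 in WT neutrophils.

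Of the 43 chains, 33 were well above background on at least 1 array and 10 on none. The 10 were Col2a1, Col4a3, Col6a4, Col6a5, Col6a6, Col9a3, Col10a1, Col11a1, Col13a1 and Col28a1, among them the cartilage chains Col2a1, Col10a1 and Col11a1. Among the 33, 13 were well above background on all 6 arrays and 26 on all 4 macrophage arrays. Per array, 27 chains were well above background in KO macrophages with TNF and 29 in WT macrophages with TNF, against 29 and 30 on the KO and WT arrays without TNF. The KO and WT neutrophil arrays had 16 and 17. Col19a1 was the only chain well above background on a neutrophil array and on no macrophage array.

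The first comparison asked how loss of TIARP changed the macrophage preparations. Most measured fibrillar chains were lower on both KO macrophage arrays than on their WT counterparts. Past 2-fold were 6 of 9 measured fibrillar chains in each comparison. Of 5 measured basement membrane chains 3 were lower with TNF and 1 without, and of 3 type VI chains 2 and 1. With TNF, 11 of 29 measured chains were at least 2-fold lower in KO macrophages and 1 was higher, with a median log2 difference, KO minus WT, of -0.71. Among all 20111 named genes measured there, 2.96% were lower and 6.64% higher, with a median of 0.04. Without TNF, 10 of 31 measured chains were lower and 1 was higher, with a median of -0.62. The background was 1.74% lower and 4.03% higher among 20968 named genes, with a median of 0.06. The labels give the same mouse numbers, 1 to 3, on the arrays with and without TNF of a genotype, so these 2 comparisons may share mice or cell preparations though they share no array. In all, 8 chains were lower in both, which is 72.7% of those lower with TNF and 80.0% of those lower without. Among all named genes the share was 34.5% and 56.3%. The 8 were Col1a1, Col1a2, Col5a1, Col5a2, Col24a1, Col27a1, Col4a2 and Col6a3. Of the 26 chains well above background on all 4 macrophage arrays, 19 were below 0 with TNF and 20 without (73.1% and 76.9%), and of the 18775 such named genes 45.2% and 38.3%. Scaling the arrays to 8 spike-in probes instead moved the median of all named genes to -0.74 with TNF and -0.46 without. The collagen medians then were -1.43 and -1.14, still lower than those of all genes. With normexp background correction, 7 chains were lower with TNF and 5 without, and the medians were -0.46 and -0.51. Over all named genes normexp left 217 lower with TNF and 103 without, with medians of 0.07 and 0.07. The main setting had 595 and 364 lower. Bulk RNA cannot tell fewer cells of a type from less RNA per cell.

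**Figure D1:**
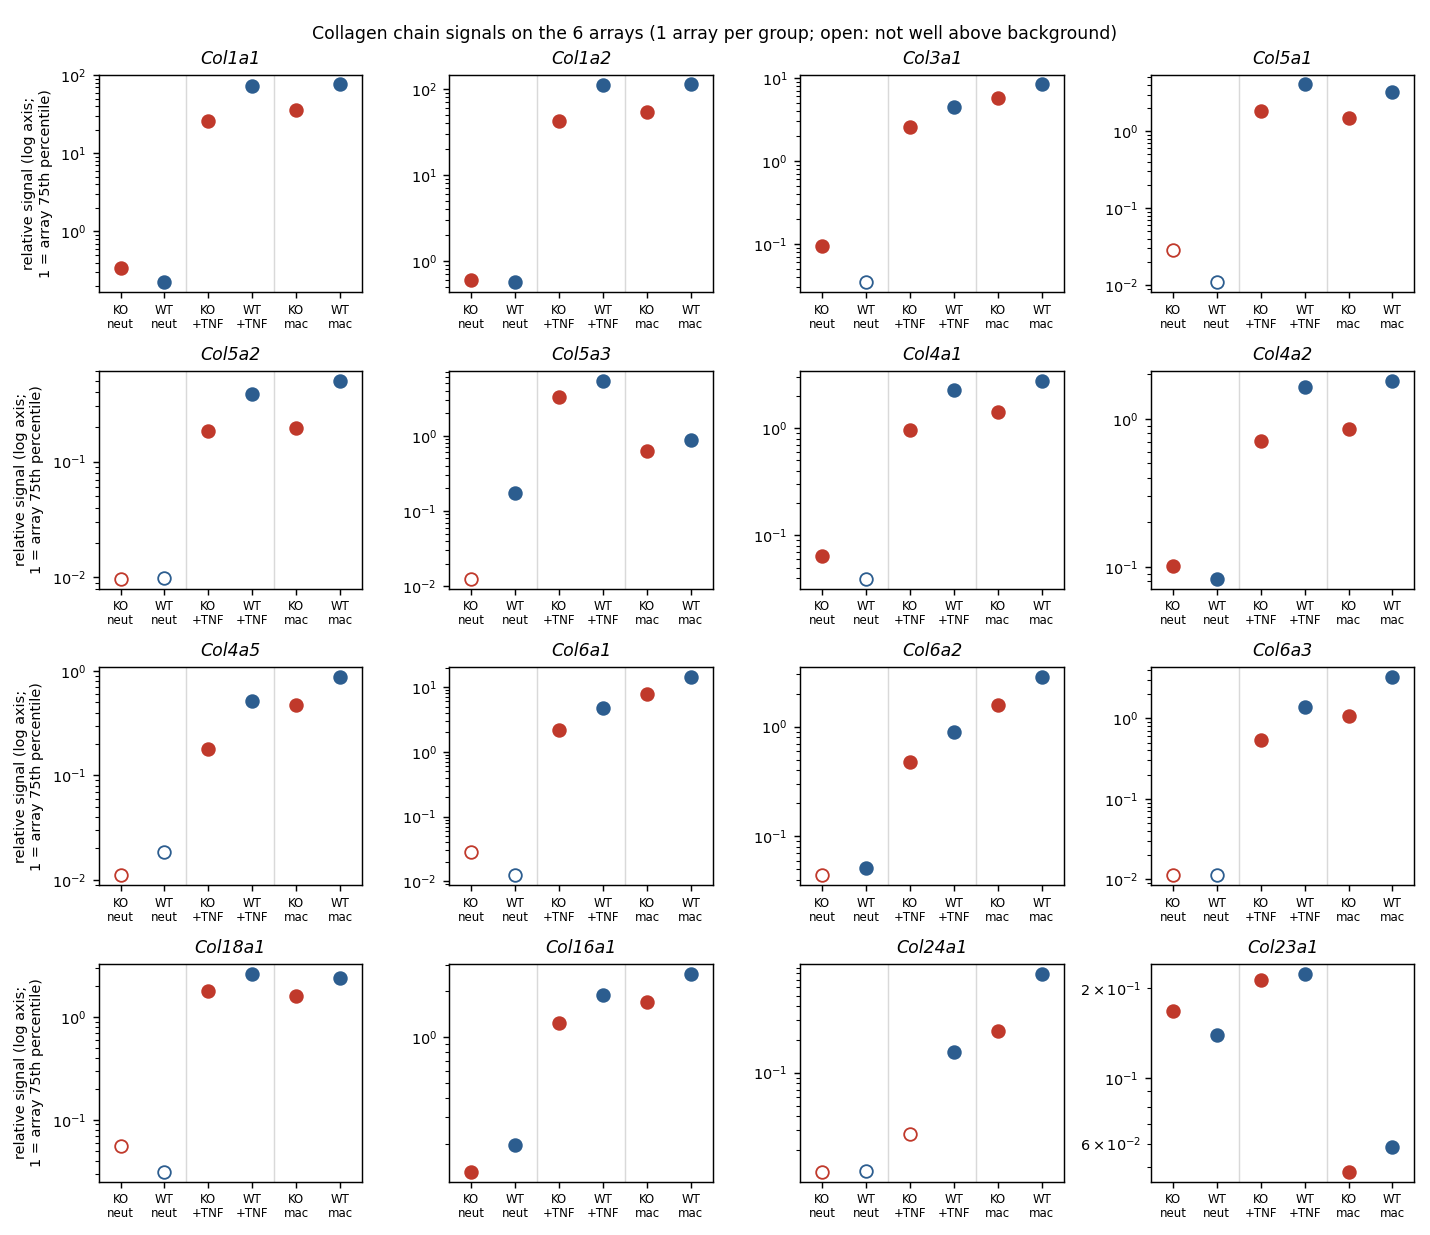
Relative signal (log axis, 1 = the array's 75th percentile of gene probes) of 16 collagen chains on the 6 arrays, KO in red left of WT in blue within neutrophils, macrophages with TNF and macrophages without TNF, 1 point per array. Open circles were not well above background. The fibrillar chain Col1a1 had 26.1 on the KO and 72.9 on the WT macrophage array with TNF.

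Among the fibrillar chains, Col1a1 and Col1a2, which together make type I collagen, were lower in KO with and without TNF. Col1a1 had a relative signal of 26.1 on the KO and 72.9 on the WT macrophage array with TNF, and of 35.9 and 76.3 without. Col1a2 had 42.7 and 109.1 with TNF, and 53.95 and 112.1 without, in KO and WT macrophages. Both KO arrays lay below both WT arrays for each chain. The log2 differences, KO minus WT, were -1.48 ± 0.20 and -1.35 ± 0.20 with TNF and -1.09 ± 0.20 and -1.06 ± 0.20 without, for Col1a1 and Col1a2 in that order (± spot error). The 2 chains of the type I molecule thus differed from each other by 0.13 with TNF and 0.03 without, less than the spot error.

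Col3a1, the chain of type III collagen that mixes with type I in fibrils of soft tissue, had 2.54 in KO and 4.53 in WT macrophages with TNF, and 5.69 and 8.37 without. Its log2 differences of -0.84 and -0.56 were in the same direction and did not reach 2-fold. Col5a1 and Col5a2, chains of the type V collagen that starts fibril assembly, were lower in KO macrophages. Col5a1 had 1.85 in KO and 4.06 in WT macrophages with TNF, and 1.498 and 3.25 without, and Col5a2 had 0.184 and 0.381 with TNF, and 0.196 and 0.498 without. The log2 differences were -1.14 and -1.12 for Col5a1 and -1.05 and -1.35 for Col5a2, and both of the Col5a2 values were under 2-fold with normexp. Col5a3, another type V chain, was not past 2-fold, with log2 differences of -0.71 with TNF and -0.48 without.

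The minor fibrillar chains Col24a1 and Col27a1 were also lower. Col24a1 had 0.0279 in KO and 0.155 in WT macrophages with TNF, where it was at least 4.46-fold lower in KO by the bound but not past 2-fold with normexp, and 0.240 and 0.794 without TNF, a 3.31-fold difference. Col27a1 had 0.0249 and 0.0951 with TNF, at least 2.73-fold lower in KO, and 0.0369 and 0.0929 without, 2.52-fold lower, and was under 2-fold with normexp in both. Col11a2, the last measured fibrillar chain, differed by -0.11 and -0.28. In total, 6 of 9 measured fibrillar chains were lower and 0 higher in each comparison, with medians of -1.14 with TNF and -1.09 without.

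**Figure D2:**
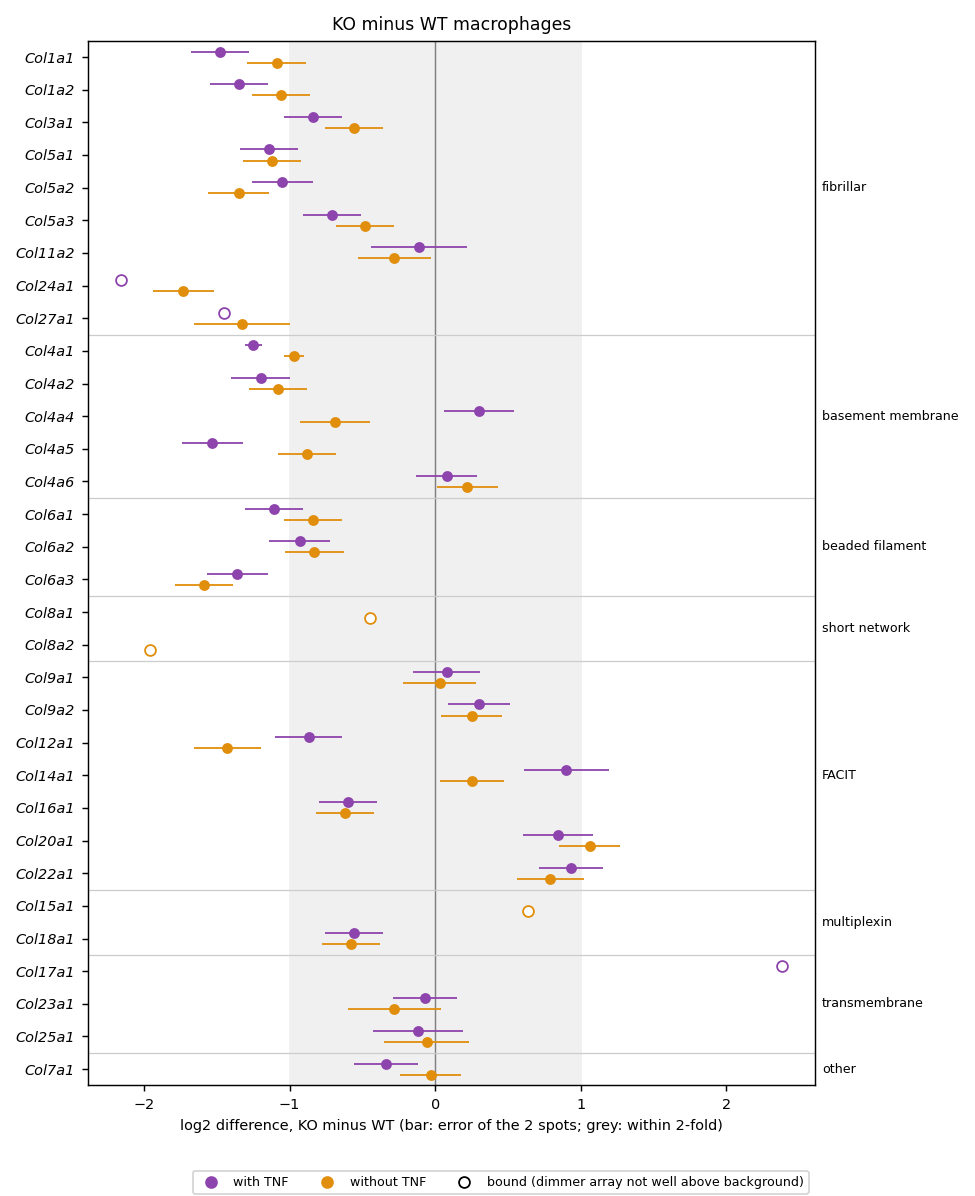
Log2 difference in relative signal, KO minus WT macrophages, for each measured collagen chain by family, with TNF (purple) and without (orange). Bars are the errors of the 2 spots, open circles are lower bounds and the grey band is the range within 2-fold. The fibrillar, type IV (alpha 1, 2 and 5) and type VI chains lie left of 0 and most FACIT chains at or right of it.

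In the basement membrane family, Col4a1 had 0.962 in KO and 2.29 in WT macrophages with TNF, and 1.41 and 2.76 without. Col4a2, which winds with Col4a1 into 1 molecule, had 0.712 and 1.64 with TNF, and 0.855 and 1.81 without. The log2 differences of Col4a1 were -1.25 ± 0.06 and -0.97 ± 0.07, the second just short of 2-fold, and those of Col4a2 were -1.20 ± 0.20 and -1.08 ± 0.20, the second -0.99 with normexp. These neighbours with the shared promoter stretch differed from each other by 0.05 and 0.11. The type I chains, on different chromosomes, differed by 0.13 and 0.03. A part of the shared stretch in this closeness was not tested. Col4a5, a chain of the kidney-type network that lies beside Col4a6 on chromosome X, had 0.180 in KO and 0.519 in WT macrophages with TNF, and 0.473 and 0.871 without. Its log2 difference was -1.53 with TNF (-0.91 with normexp) and -0.88 without. Its neighbour Col4a6 was at 0.08 and 0.22 through its brightest probe.

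Type VI collagen is made of Col6a1, Col6a2 and a further chain, here Col6a3. Col6a1 had 2.16 in KO and 4.67 in WT macrophages with TNF, and 7.89 and 14.2 without. Col6a2 had 0.474 and 0.902 with TNF, and 1.58 and 2.82 without. Both gave log2 differences near 1 in size, -1.11 and -0.84 for Col6a1 and -0.93 and -0.83 for Col6a2. Col6a3 had 0.541 in KO and 1.39 in WT macrophages with TNF, and 1.07 and 3.23 without. Its differences of -1.36 and -1.59 were both past 2-fold.

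Outside these families the chains differed in direction, and the called values of Col8a2, Col12a1, Col17a1 and Col20a1 below were under 2-fold with normexp background correction. Col8a2, a short-chain network collagen known from endothelial basement membranes, had 0.0159 in KO and 0.0985 in WT macrophages without TNF and was at least 3.88-fold lower. With TNF it was not well above background on either array. Col12a1, a FACIT chain, had 0.0762 in KO and 0.205 in WT macrophages without TNF, a log2 difference of -1.43, and 0.134 and 0.244 with TNF, a difference of -0.87. Col16a1 and Col18a1, a FACIT chain and the precursor of endostatin, were lower by less than 2-fold, with differences of -0.60 and -0.56 with TNF and -0.62 and -0.58 without, for Col16a1 and Col18a1 in that order.

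In the opposite direction, Col17a1, a transmembrane chain of epithelial hemidesmosomes, had 0.120 on the KO and 0.00580 on the WT macrophage array with TNF, at least 5.20-fold higher in KO, and was well above background on neither array without TNF. Col20a1, a FACIT chain, had 0.310 in KO and 0.148 in WT macrophages without TNF, a log2 difference of 1.06 (0.93 with quantile normalization and 0.54 with spike-in scaling), and 0.159 and 0.0887 with TNF, a difference of 0.84. Its other probe differed by 0.24 without TNF. Over the FACIT family 0 of 7 measured chains were lower or higher with TNF, and without it 1 was lower and 1 higher, with medians of 0.30 and 0.25. The fibrillar medians lay below 0, and scaled to spike-ins the FACIT medians did too, at -0.48 and -0.27.

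Some genes had 2 probes that disagreed, and the brightest probe then decided how the gene was read. Col14a1, a FACIT chain, was at 0.90 with TNF and 0.25 without through its brightest probe (A_55_P2124736, mm9 chr15:55352264-55352323, + strand). The GGN-rich probe shown above had 0.0699 in KO and 0.138 in WT macrophages with TNF, and 0.0768 and 0.154 without, with differences of -0.98 and -1.01. For Col4a6, the other probe (A_52_P516409, mm9 chrX:137599990-137600049, - strand) had 0.103 in KO and 0.246 in WT macrophages with TNF, and 0.269 and 0.536 without. It was 2.38-fold lower in KO with TNF and 1.995-fold lower without, unlike the brightest probe of its own gene.

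For Col22a1, a FACIT chain of tissue junctions, both probes lay above 0 in both comparisons but differed in size. Its brightest probe (A_52_P434306) had 0.217 in KO and 0.114 in WT macrophages with TNF, and 0.138 and 0.0793 without, with differences of 0.93 and 0.79. Its other probe (A_55_P2031781) was well above background on the 2 KO macrophage arrays and on no other array. Which transcripts each probe reads was not tested.

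**Figure D3:**
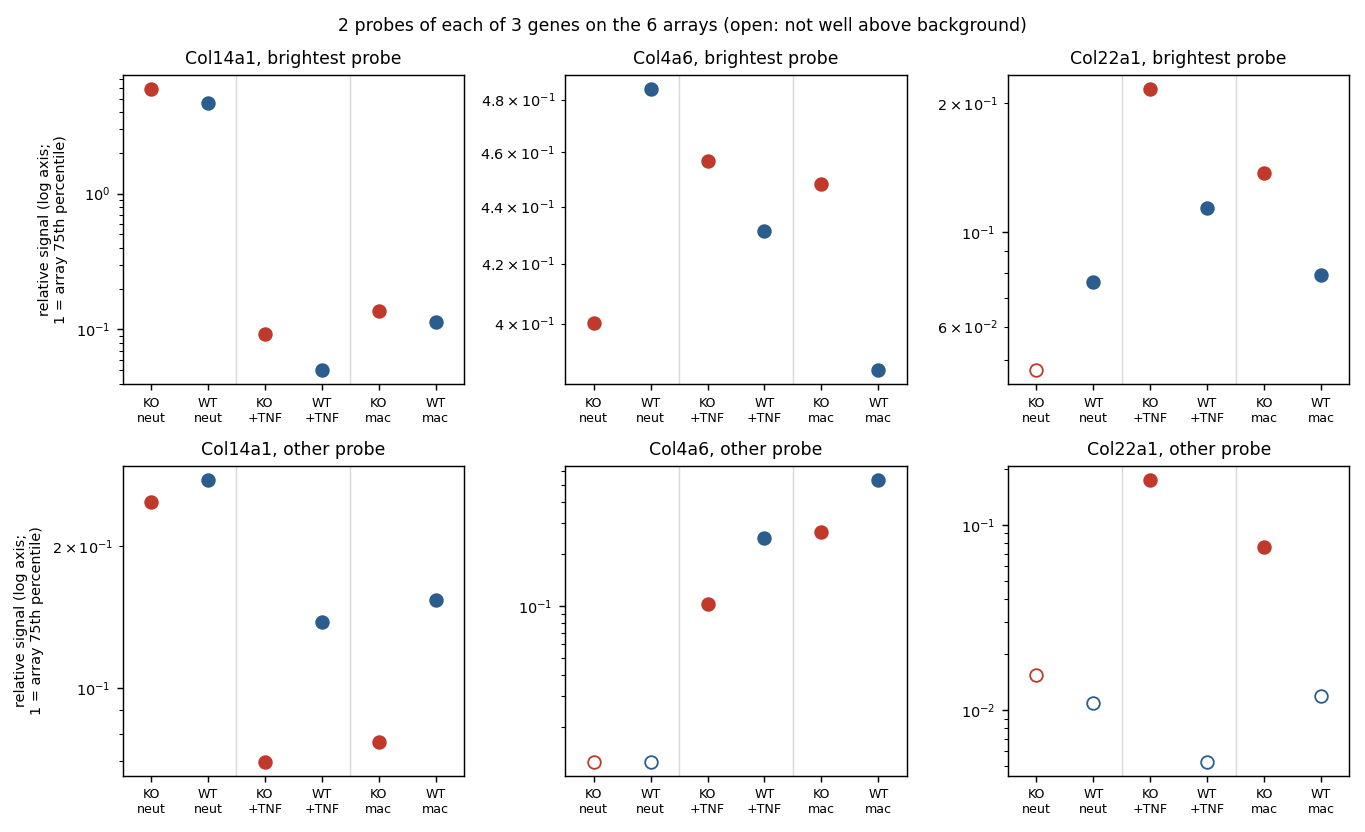
Relative signal (log axis) of the brightest probe (top row) and the other probe (bottom row) of Col14a1, Col4a6 and Col22a1 on the 6 arrays, KO in red left of WT in blue. Open circles were not well above background. The other Col14a1 probe read 0.0699 on the KO and 0.138 on the WT macrophage array with TNF.

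The second comparison asked how the collagen signals of macrophages with TNF differed from those without. The labels state hours just for TNF, so time in culture and TNF cannot be told apart. In KO macrophages 3 of 29 measured chains were higher with TNF and 5 lower, beside a background of 4.62% higher and 4.04% lower among 20277 named genes. In WT macrophages 2 of 31 were higher and 6 lower, beside 4.65% and 4.82% among 21057 named genes. The medians were -0.26 and -0.27, against 0.02 and 0.03 over all named genes. The comparisons of KO with WT and of TNF with no TNF share arrays, so their values are given side by side without reading an overlap.

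Col6a1 and Col6a2 were lower with TNF in both genotypes, and Col6a3 in WT macrophages. Col6a1 had 2.16 with and 7.89 without TNF in KO macrophages, and 4.67 and 14.2 in WT, with log2 differences of -1.87 and -1.60. Col6a2 was at -1.74 and -1.64 and Col6a3 at -0.99 and -1.21, in KO and then WT macrophages. Col24a1 had 0.0279 with and 0.240 without TNF in KO, and 0.155 and 0.794 in WT macrophages, with a bound of -2.79 in KO (-0.82 with normexp) and a difference of -2.35 in WT.

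Type I chains stayed close to their levels without TNF. Col1a1 was at -0.46 in KO and -0.07 in WT macrophages, and Col1a2 at -0.34 and -0.04. Col3a1, in contrast, was at -1.16 and -0.89, past 2-fold in KO only, a difference between genotypes that was not tested. Col4a5 was at -1.39 (-0.82 with normexp) and -0.75, while Col4a1 and Col4a2 were at -0.55 and -0.26 in KO and -0.27 and -0.14 in WT macrophages.

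Col5a3 was higher with TNF in both genotypes. It had 3.30 with and 0.634 without TNF in KO macrophages, and 5.38 and 0.884 in WT, with log2 differences of 2.38 ± 0.20 and 2.60 ± 0.20. The other type V chains did not move with it, with Col5a1 at 0.30 and 0.32 and Col5a2 at -0.09 and -0.39. Col23a1, a transmembrane chain, had 0.213 with and 0.0483 without TNF in KO and 0.224 and 0.0585 in WT macrophages, with differences of 2.14 and 1.94, which were 0.58 and 0.59 with the median over its probes and 0.90 and 0.95 with normexp. Col17a1 was at least 4.73-fold higher with TNF in KO macrophages, and at 0.71 with normexp. In WT macrophages Col14a1, through its brightest probe, was at -1.19 and Col8a2 at least 4.26-fold lower, with -0.33 and -0.54 in the normexp values.

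**Figure D4:**
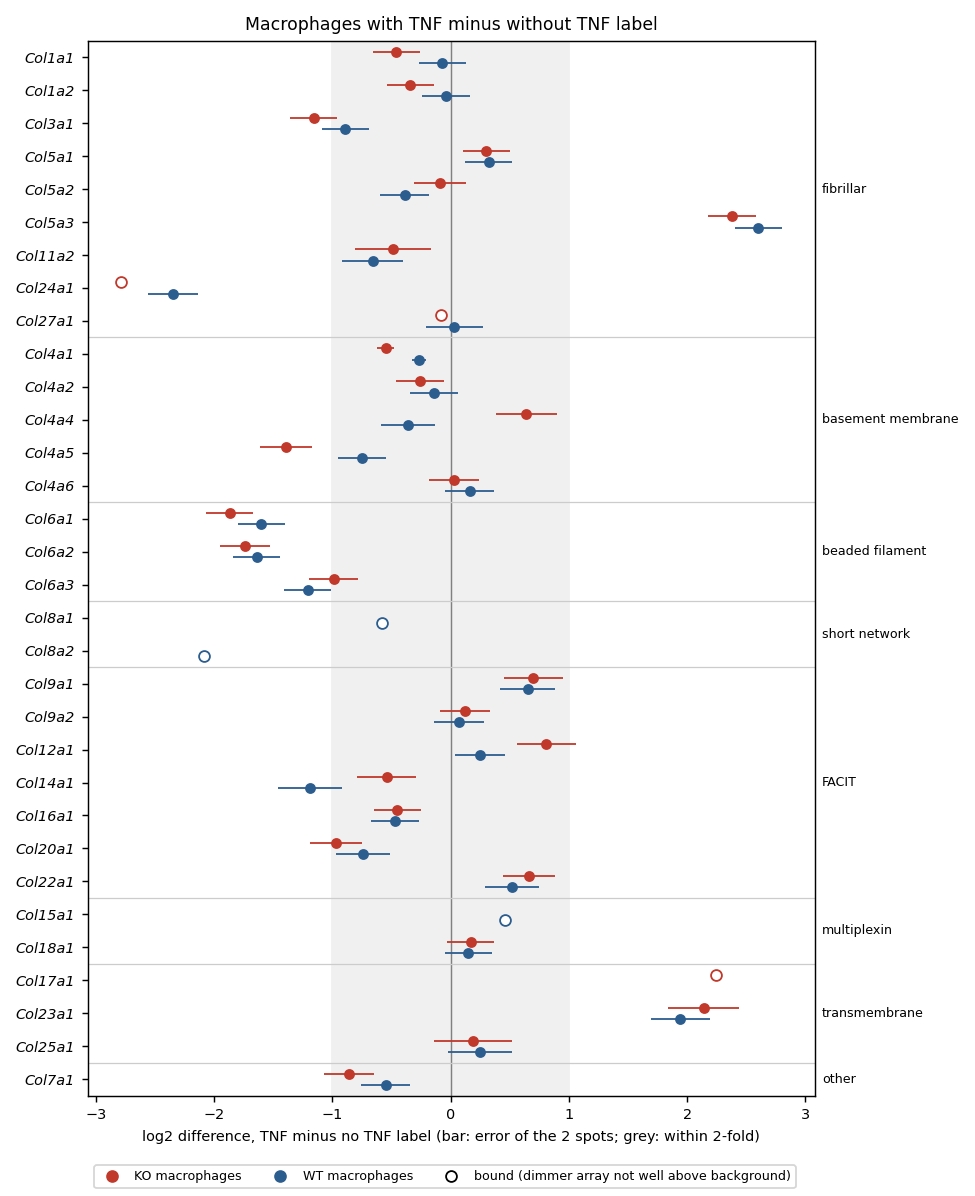
Log2 difference in relative signal, macrophages with TNF minus without, for each measured collagen chain by family, in KO (red) and WT (blue) macrophages. Bars are the errors of the 2 spots, open circles are lower bounds and the grey band is the range within 2-fold. Col5a3 lies at 2.38 and 2.60 and the type VI chains Col6a1 and Col6a2 lie between -1.87 and -1.60.

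In splenic neutrophils 1 chain passed 2-fold between KO and WT. Of 20 measured chains 0 were higher in KO and 1 was lower, with a median of 0.26, beside 3.54% and 5.00% of 20549 named genes. Col1a1 had 0.343 in KO and 0.222 in WT neutrophils and Col1a2 had 0.594 and 0.564, with log2 differences of 0.63 and 0.08. Col5a3 had 0.0126 in KO and 0.175 in WT neutrophils, was not well above background in KO, and was at least 3.73-fold lower there, a call lost with normexp (-0.53). On the same arrays 6 of 8 macrophage markers were lower in KO, with a median of -1.20 and summed signals of 233.5 in KO and 430.9 in WT neutrophils, and Acta2, smooth muscle actin, was 3.57-fold higher. Their part in the Col5a3 difference was not tested.

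Compared with WT macrophages without TNF, WT neutrophils were lower in 17 of 29 measured chains and higher in 3, beside 20.1% and 26.0% of 20966 named genes. The median of -2.34 became 0.18 when the 12 bounds were left out. Col1a1 was 343-fold lower and Col1a2 had 0.564 in WT neutrophils and 112.1 in WT macrophages. The largest bounds were at Col6a1, with 0.0124 in WT neutrophils and 14.2 in WT macrophages, at least 295-fold, and Col3a1, with 0.0343 and 8.37. Col14a1, through its brightest probe, had 4.65 in WT neutrophils and 0.114 in WT macrophages, 40.8-fold higher, while the other probe had 0.277 and 0.154, 1.79-fold. Col11a2 and Col23a1 were higher by 2.21 and 1.25 on the log2 scale, but with spike-in scaling they were at 0.63 and -0.33. Through their brightest probes, a further 9 chains lay within 2-fold of WT macrophages or, for Col27a1, had a bound under 2-fold. The 9 were Col4a4, Col4a6, Col7a1, Col9a1, Col9a2, Col20a1, Col22a1, Col25a1 and Col27a1. Other probes of 2 of them disagreed. In WT neutrophils that of Col4a6 (A_52_P516409) was at least 11.2-fold lower, and 1 of Col25a1 (A_55_P2160750) at least 6.31-fold higher. The comparison of KO and WT macrophages with TNF shares no array with this one, though its WT array carries the same mouse numbers as the WT array without TNF. There, the 16 measured of the 17 neutrophil-low chains were all below 0, with a median of -1.12. The 9, again through their brightest probes, had a median of 0.08. Over all named genes measured there, 45.7% were below 0. The same split of all named genes by neutrophil signal was not made, so it is not read as a trait of collagens.

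The genes that build collagen were compared from a list of 31. Of 28 measured, 4 were lower in KO macrophages with TNF and 1 was higher, and 3 were lower and 0 higher without, with medians of -0.22 and -0.16. Serpinh1, the collagen chaperone HSP47, had 10.3 in KO and 26.5 in WT macrophages with TNF, and 13.7 and 27.8 without, with differences of -1.36 and -1.02. Fkbp10, a prolyl isomerase of the procollagen chaperone machinery, was 2.52-fold lower with TNF and 2.004-fold without, and Adamts14, a procollagen N-proteinase, was at -1.20 and -1.39. P4hb, a subunit of prolyl 4-hydroxylase that also serves protein folding more widely, was at 1.09 with TNF and 0.56 without. With TNF against no TNF, Lox, the crosslinking enzyme lysyl oxidase, had 2.27 and 0.170 in KO macrophages and 1.64 and 0.258 in WT, with differences of 3.74 and 2.67.

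Of 11 collagen receptors, Itga1, the alpha 1 integrin chain, was at 1.49 and Ddr1, a collagen-binding kinase, at -1.05 in KO against WT macrophages with TNF, and 0 of 8 measured were past 2-fold without TNF. Among 25 other matrix genes, more were lower than higher. There, 9 of 22 measured were lower in KO macrophages with TNF and 1 was higher, and 6 of 23 were lower and 0 higher without, with medians of -0.85 and -0.86. Postn, the matricellular protein periostin, was at least 4.58-fold lower with TNF and at -1.31 without, and Fbn1, fibrillin 1 of microfibrils, was at -1.30 and -1.28. Mfap4, the exception, was at 1.38 with TNF and 0.84 without. It was brighter in neutrophils, with 7.5 in KO and 4.9 in WT, against 0.78 to 2.2 on the macrophage arrays. Of 17 genes of the TGF-beta pathway, known as a main inducer of collagen, all measured, 2 were lower and 0 higher in KO against WT macrophages with TNF, and 1 was lower and 0 higher without, with medians of -0.26 and -0.38. The ligand Tgfb2 was at -1.25 and -1.03, Tgfb3 at -1.36 and -0.95, and Tgfb1 at -0.32 and 0.02.

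Some markers of other cells were lower on the same arrays. Of 11 mesothelial markers, all measured, 3 were lower and 1 higher in KO macrophages with TNF and 2 lower without, with medians of -0.66 and -0.68. The lower ones were Upk1b, Lrrn4 and Bnc1 with TNF and Upk3b and Lrrn4 without, and the higher one was Muc16. The marker Msln was at -0.14 with TNF and 0.02 without. Krt19, Krt8 and Krt18 were at -0.08, -0.33 and -0.42 with TNF and at 0.20, -0.26 and -0.19 without. The summed relative signal of the 11 was 8.57 in KO and 13.0 in WT macrophages with TNF, and 25.3 and 33.4 without. Most of that difference came from Wt1, with 4.12 in KO and 7.33 in WT with TNF, and 7.57 and 12.1 without. Of 10 measured fibroblast markers, 3 were lower with TNF, and 2 were lower and 1 higher without, with medians of -0.04 and -0.17. Their summed signals were 95.5 in KO and 108.9 in WT macrophages with TNF, and 109.3 and 124.4 without, most of it from Gsn and Dcn. Pdgfra, a defining fibroblast receptor, was at -1.55 and -1.05, Dcn (decorin) was at -0.35 and -0.30, Pi16 at 0.74 and 1.52, Mfap5 at 0.29 and 0.46, Thy1 at 0.22 and 0.04, and Dpt was well above background on no array. Pi16 was brighter in neutrophils, with 62.8 in KO and 27.9 in WT, against 0.610 to 1.75 on the macrophage arrays, so its source there is unclear. Acta2, smooth muscle actin, was at -1.47 and -1.06, and all 4 measured smooth muscle and pericyte markers were lower with TNF and 2 of 5 without. The 4 were Acta2, Tagln, Cnn1 and Des. Of the 7 listed, Myh11 and Rgs5 were well above background on no array and Notch3 on 2. Of 5 measured endothelial markers 0 were past 2-fold in either comparison, with medians of 0.22 with TNF and 0.18 without. Tie1 and Emcn of that list were well above background on no array, and Tek on no macrophage array. Of 3 measured adipocyte markers, Cidec, Fabp4 and Retn, 1 was higher and 0 lower in each, with medians of 0.04 and 0.27. Adipoq, Plin1 and Lep were well above background on no array. The higher one was Retn, which had 3.69 in KO and 1.97 in WT neutrophils, against 0.0377 to 0.369 on the macrophage arrays. The share of these cells in the collagen differences was not tested.

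With TNF against no TNF, mesothelial markers and type I collagen went apart. Of the 11 mesothelial markers 8 were lower in KO and 9 in WT macrophages, with medians of -2.40 and -2.29, while Col1a1 was at -0.46 and -0.07. The fibroblast markers had medians of -0.26 and 0.10, with 2 and 1 of 10 lower. In KO against WT macrophages, 4 of 8 neutrophil markers were higher with TNF and 5 without, and 0 were lower. Their sums were 491.8 in KO and 236.9 in WT macrophages with TNF and 449.4 and 172.9 without. All 3 measured B-cell markers were higher in both, with sums of 11.8 in KO and 2.97 in WT macrophages with TNF, and 16.7 and 4.44 without. Of the 8 macrophage markers 0 were past 2-fold in KO against WT macrophages, with medians of 0.21 with TNF and 0.16 without. With TNF against no TNF, 4 of the 8 were lower in each genotype, with medians of -0.94 in KO and -1.03 in WT macrophages. The part of these markers in the collagen differences was not tested.

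**Figure D5:**
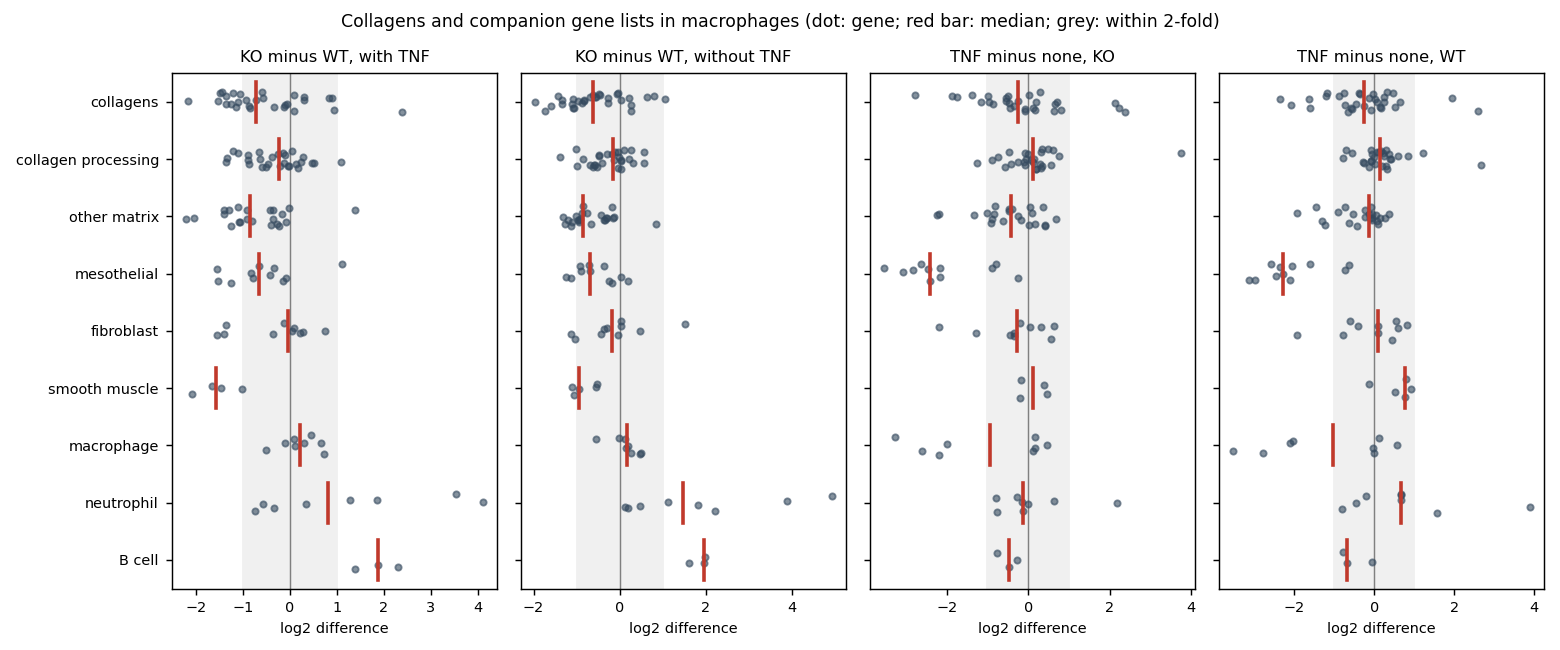
Log2 differences of the collagen chains and of 8 other gene lists in macrophages, 1 dot per measured gene with the median as a red bar, for KO minus WT (with and without TNF) and for TNF minus no TNF (KO and WT). All lists except the macrophage, neutrophil and B-cell markers had medians below 0 in both KO-WT panels. The mesothelial markers had the lowest medians in both TNF panels.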

How the data were processed

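Each array held total RNA labelled with Cy3. Per the file headers, the authors quantified the scans with Agilent Feature Extraction 10.7.3.1 and the deposited intensity was background-subtracted, detrended within the array, with dim spots set to a surrogate value. No normalization between arrays was recorded, probe coordinates were on mm9, and all arrays lay on 1 slide, so no batch could be tested.

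Outlier spots (101 to 121 of 59305 gene spots per array) were left out, repeat spots averaged, and the intensity turned to log2 minus each array's 75th percentile over gene probes. Each of 30186 named genes, the 16194 lincRNA probes left out, was represented by its brightest probe. Of the collagen genes 25 had 1 probe and 18 several. Emid2, an older name of a collagen, was not matched by the naming rule. Sets were described by counts and medians beside those of all named genes. No p-value was computed, since each group had 1 array, which limits the precision. The alternatives are given in the closing section. The size rule was tested on simulated data. With 1 array per group that test could not include a measured spread between mice, so it does not say how often a call would repeat.

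Values on all arrays were given for types I, III, IV (alpha 1 and 2), V and VI and for other chains past 2-fold between genotypes. Chains past it with TNF or between cell types were named up to 4 per direction by size, with those well above background nowhere. From other lists the 2 largest differences per direction and defining markers were named. Further genes and probes were named after their values were seen. 1 listed marker gene is not reported here. Members and lists were chosen with earlier results of these data known. Python 3.11.15, pandas 2.3.3, numpy 2.4.6, R 4.3.3 and limma 3.58.1 (normexp, offset 50, and quantile normalization) were used. Promoter sequences and gene neighbours came from RefSeq (GRCm38.p6).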

Additional observations from a re-analysis of the deposited data

Results flagged for a closer look

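One value lay outside the probes the comparisons used. The other probe of Col22a1 (A_55_P2031781) had a relative signal of 0.175 on the KO and 0.00528 on the WT macrophage array with TNF, a bound of 2.92 on the log2 scale (at least 7.57-fold higher in KO). Without TNF it had 0.0759 in KO and 0.0119 in WT macrophages, at least 3.71-fold higher. It was not well above background on either WT macrophage array or on either neutrophil array, and its gene's brightest probe was at 0.93 and 0.79.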

How the results depend on the processing

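Within a comparison no paired analysis was possible because each group had 1 array and no second replicate number. For the same reason no replicate could be left out. An additive fit of genotype and condition over the 6 arrays, which would take differences between conditions as error, was not run. Over repeats of single called chains under the 7 alternatives, 364 kept the direction and the 2-fold call, 29 lost the call, mostly with normexp background, and Col23a1 in WT neutrophils against WT macrophages turned to -0.33 with spike-in scaling. Repeats in which a chain was no longer measured were not counted. Dropping the filter or requiring both arrays above background could not take a call from a measured chain. The median over probes changed nothing for chains with 1 probe. The 364 thus include repeats whose outcome was fixed. Scaling to the median of probes well above background on all arrays moved no collagen count by over 1.5 times.

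Without TNF, KO against WT macrophages, spike-in scaling gave 0 higher, 19 lower and a median of -1.14, normexp 0, 5 and -0.51, and quantile normalization 0 higher. With TNF, spike-in scaling gave 18 lower and -1.43, and normexp 0 higher, 7 lower and -0.46. There, no filter on dim probes gave 2 higher and -0.10, both arrays above background 0 higher, and the median over probes 2 higher and -0.85. Of all named genes, spike-in scaling gave 4589 lower with TNF and 1602 without, and normexp 217 and 103. The main setting had 595 and 364, so the collagen counts under these settings have unlike backgrounds. For KO against WT neutrophils, spike-in scaling gave 3 lower and -0.16, normexp 0 lower and 0.11, no filter 6 higher, 2 lower and -0.01, and both arrays above background 0 lower. The lower named genes there were 2132 with spike-in scaling, 483 with normexp, 1835 with no filter and 768 with both arrays. The main setting had 1027 lower and 728 higher, and no filter 1814 higher.

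For TNF in KO macrophages, spike-in scaling gave 8 lower and -0.48, normexp 1 higher, 3 lower and 0.01, no filter 0.03 and the median over probes -0.46. Of all named genes, 1561 were lower with spike-in scaling and 379 with normexp, against 820 in the main setting. For TNF in WT macrophages, normexp gave 1 higher and -0.08, no filter 11 lower and -0.07, and the median over probes 1 higher and -0.43. Of all named genes, normexp gave 572 higher against 979, and no filter 1978 lower against 1014. For WT neutrophils against WT macrophages, quantile normalization gave -2.61, spike-in scaling 1 higher, 26 lower and -3.80, normexp -1.35, no filter 11 higher and -0.40, both arrays above background 6 lower and 0.18, and the median over probes -3.71. Of all named genes, no filter gave 11780 higher against 5446, and both arrays above background 3444 lower against 4223. The cause of these shifts was not tested, apart from the fewer chains that a requirement on both arrays leaves.

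Among all named genes, the share of calls that were higher was 69.2% with TNF and 69.9% without for KO against WT macrophages, and 7.63% and 18.7% with spike-in scaling (58.0% with quantile normalization with TNF). For KO against WT neutrophils it was 41.5%, and 12.5% with spike-ins, and for TNF in KO macrophages 53.3% and 26.4%. For WT neutrophils against WT macrophages it was 56.3%, and 70.7% with no filter, and spike-in scaling gave 1723 higher and 14004 lower genes.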
